A study of Mus musculus with 8 samples.

Results

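The genes described here encode the proteasome and its activators, inhibitor and assembly factors in mouse bone marrow-derived dendritic cells. They were chosen by symbol: every gene with a probe set annotated to it alone and a symbol beginning with Psm, one of the letters a to g and a digit. This gave 49 genes of the 22180 that have such a probe set, each represented by the probe set with the highest mean over all 8 arrays. Psmc3ip, a meiotic recombination factor, and Psme3ip1, a partner of the activator subunit Psme3, match by name only and are no proteasome subunits. The alpha ring gene Psma4 has only probe sets shared with AY074887 and is therefore no member. On the brighter of them the log2 intensity averaged 7.67 ± 0.12 with SCF and 7.59 ± 0.16 in medium (SD, n = 4 each), a difference of 0.08 (SE 0.06, adjusted p = 0.945 in limma) that was above 0 in 4 of 4 experiments.

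The study asked how dendritic cells kept in low oxygen respond to SCF, or stem cell factor, which signals through the receptor Kit. In the SCF group, CD11c+ dendritic cells from wild-type female C57BL/6 mice received SCF at 100 ng/ml for 6 hours, and in the medium group they were left untreated for the same time. Cells of both groups had been grown from bone marrow for 7 days with GM-CSF at 20 ng/ml in 21% oxygen, purified with anti-CD11c beads to 98%, and then held for 2 days in 2% oxygen, about 14 mmHg, with GM-CSF. Each of 4 experiments, labelled BC, D2, E and I, supplied 1 SCF array and 1 medium array made from the same culture. No array of cells kept in normal oxygen was analysed here, so nothing below measures an effect of hypoxia. The labels do not give the animals' ages or the number of animals behind a culture.

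The proteasome is the protease that degrades ubiquitin-tagged proteins. Its barrel-shaped core is built of alpha rings, which gate the entrance, and beta rings, which hold the caspase-like, trypsin-like and chymotrypsin-like sites, and a regulatory cap binds ubiquitin chains, unfolds the substrate and feeds it in. In cells of the immune system, and in other cells exposed to interferon gamma, the catalytic subunits Psmb6, Psmb7 and Psmb5 are replaced in newly built cores by Psmb9, Psmb10 and Psmb8, which gives the immunoproteasome. The activator PA28, made of Psme1 and Psme2, is induced along with them, and the peptides released feed antigen presentation on MHC class I, a central task of dendritic cells.

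Among the inducible genes, Psmb8 and Psmb9 lie close together on chromosome 17 and Psme1 and Psme2 on chromosome 14. Psmb10 lies apart from both pairs, on chromosome 8. In the order of RefSeq genes, Psmb9 and Psmb8 are separated only by Tap1, which encodes a subunit of the peptide transporter. Psme1 and Psme2 are separated only by Emc9. The constitutive gene Psmb5 lies next to Psmb11, the catalytic subunit of cortical thymic epithelium. RefSeq promoter windows of 300 bases, 250 before and 50 after the start, were available for 41 of the 49 members on GRCm38.p6, and 45 windows were searched because some genes have several starts. The windows of the chymotrypsin-like pair (Psmb8 and Psmb5) and of the caspase-like pair (Psmb9 and Psmb6) are shown because these are the exchanged subunits whose windows held 1 of the motifs searched. Psmb7 has no entry, and the Psmb10 window held none of the 5 motifs. Each window is written 5′ to 3′ on the gene's own strand, and capitals mark the motif match. The match is TTCNNNGAA, the core of a STAT site, in Psmb8, CCAAT read on the opposite strand in Psmb9, and TGACNNNGC, an Nrf1 type element, in Psmb5 and Psmb6.
Psmb8: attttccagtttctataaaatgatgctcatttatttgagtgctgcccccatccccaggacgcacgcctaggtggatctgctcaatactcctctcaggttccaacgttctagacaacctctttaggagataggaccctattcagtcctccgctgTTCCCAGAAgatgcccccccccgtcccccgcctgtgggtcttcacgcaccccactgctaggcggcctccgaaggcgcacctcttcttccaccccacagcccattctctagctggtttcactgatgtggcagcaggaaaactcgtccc
Psmb5: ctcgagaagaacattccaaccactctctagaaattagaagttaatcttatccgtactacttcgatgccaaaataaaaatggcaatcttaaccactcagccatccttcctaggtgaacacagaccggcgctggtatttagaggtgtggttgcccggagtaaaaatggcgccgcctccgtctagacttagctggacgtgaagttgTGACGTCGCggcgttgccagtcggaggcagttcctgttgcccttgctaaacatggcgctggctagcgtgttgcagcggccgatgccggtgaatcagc
Psmb9: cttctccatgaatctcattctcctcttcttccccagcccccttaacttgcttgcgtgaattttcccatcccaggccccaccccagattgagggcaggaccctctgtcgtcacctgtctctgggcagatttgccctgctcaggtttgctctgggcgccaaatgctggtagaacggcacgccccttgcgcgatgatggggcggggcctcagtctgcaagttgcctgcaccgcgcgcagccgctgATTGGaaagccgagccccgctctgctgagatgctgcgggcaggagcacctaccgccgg
Psmb6: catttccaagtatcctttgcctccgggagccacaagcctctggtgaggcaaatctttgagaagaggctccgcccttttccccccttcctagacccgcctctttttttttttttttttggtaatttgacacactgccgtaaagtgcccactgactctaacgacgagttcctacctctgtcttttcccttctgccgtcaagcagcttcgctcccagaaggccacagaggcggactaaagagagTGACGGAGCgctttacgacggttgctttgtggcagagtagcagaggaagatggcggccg
The Psmb8 window is chr17:34197945-34198244 on the plus strand, and its match begins 97 bases before the start. The Psmb5 window is chr14:54617946-54618245 on the minus strand, with the match beginning 47 bases before the start. The Psmb9 window is chr17:34187281-34187580 on the minus strand and the Psmb6 window is chr11:70525107-70525406 on the plus strand, with matches beginning 8 and 9 bases before the start.

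Motifs were searched on both strands, and matches of different motifs were allowed to overlap. CCAAT, the box bound by NF-Y, stood in 16 of the 45 windows of members, against 37.4% of all 32851 windows. TGACNNNGC was found in 6 of the 45, against 12.4% of all windows. GAAANNGAA, part of an interferon response element, was found in 7 of the 45, against 8.56% of all windows. Psme1 was the inducible gene with that match. TTCNNNGAA was found in 3 of the 45, against 8.30% of all windows, and GGGANTTTC, a kB type site, in 1, against 1.11%. A match describes letters only and shows no binding.

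The values are intensities summarised by robust multi-array analysis (RMA) and taken here to log2, so that a difference of 1 is a doubling. Array medians lay between 13.3 and 13.9 on the linear scale. Probe sets with a mean log2 intensity of at least 4.05, the median over annotated probe sets, were tested, and 46 of the 49 members passed. The exceptions were Psma5, Psma8 and Psmb11. Psma8, the testis form of an alpha subunit, read 3.48 ± 0.04 with SCF and 3.55 ± 0.08 in medium, and Psmb11 read 3.59 ± 0.16 with SCF and 3.64 ± 0.11 in medium (SD, n = 4 each). Psma5, a subunit of every core, read only 3.23 ± 0.14 with SCF and 3.21 ± 0.06 in medium, below the filter although the core cannot be built without it. Of the dendritic cell markers, Itgax, which encodes CD11c, read 10.02 ± 0.23 with SCF and 10.08 ± 0.12 in medium, and H2-Ab1, an MHC class II chain, read 11.03 ± 0.04 with SCF and 10.99 ± 0.03 in medium. Flt3, Zbtb46 and Ciita were also above the filter. The macrophage markers Adgre1, Csf1r, Mertk and Cd68 were above the filter as well, while 4 of 5 mast cell markers, 4 of 5 neutrophil markers and all markers measured for B cells (2) and for T and NK cells (3) were below it.

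SCF against medium was compared within experiments by limma, with the experiment as a block and Benjamini-Hochberg adjustment over all 12668 tested probe sets. None of the 46 members passed an adjusted p of 0.05, where 0% of all tested probe sets did, and the members' adjusted p ran from 0.945 to 1.00. At an unadjusted p under 0.05 there were again 0 members, against 4.21% of all tested probe sets. The fitted log2 change was above 0 for 19 members and below 0 for 27, with a median of −0.0082 and a range of −0.19 to 0.12, and 50.5% of all tested probe sets were above 0. The median over all tested probe sets was 0.00077. SCF and medium arrays overlapped for every tested member, whereas 0.971% of all tested probe sets had groups that did not overlap. In these bulk samples, fewer cells of a type and less RNA per cell cannot be told apart.

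The 95% intervals show how precisely the intensity change of each gene was measured. They hold gene by gene, are not adjusted over the members, and concern intensity ratios rather than RNA amounts. The 95% interval lay within 1.5-fold in either direction for 46 of 46 members, as for 99.7% of all tested probe sets. For the 5 inducible genes the intervals together spanned 0.885-fold to 1.18-fold, and for the 29 tested constitutive genes 0.738-fold to 1.22-fold. The widest reach downward was that of Psma2 and the widest upward, 1.29-fold, that of the assembly chaperone Psmg1.

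Among the inducible catalytic subunits, all 3 had a fitted change above 0 and were higher with SCF in each of the 4 experiments. No other of the 46 tested members was above 0 in all 4. The members' share with this pattern is close to the 6.43% of all tested probe sets that had it. Psmb8, which carries the chymotrypsin-like site, had log2 intensities of 9.10, 8.86, 9.01 and 9.17 with SCF in experiments BC, D2, E and I, against 8.94, 8.80, 8.88 and 9.08 in medium. SCF was the higher array of each pair, but the groups overlapped, since the medium array of experiment I exceeded 2 of the SCF arrays. The mean difference was 0.11 (SE 0.05, 95% interval −0.0064 to 0.23), a 1.08-fold ratio with an unadjusted p of 0.0605 and an adjusted p of 0.945 in limma.

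Psmb10, with the trypsin-like site, had 8.86, 8.57, 8.69 and 8.67 with SCF in BC, D2, E and I, against 8.68, 8.53, 8.56 and 8.56 in medium. Here too each SCF array exceeded its partner, and the D2 pair was the closest. The difference was 0.11 (SE 0.05, 95% interval −0.0047 to 0.23), again 1.08-fold, with an unadjusted p of 0.0575 and an adjusted p of 0.945 in limma. Psmb9, with the caspase-like site, stood at 8.35, 8.39, 8.42 and 8.42 with SCF, against 8.27, 8.36, 8.30 and 8.39 in medium. Its pairs were separated by 0.03 in D2 and in I and by 0.12 in E, and the mean difference was 0.06 (SE 0.05, adjusted p = 0.945 in limma).

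The direction of these 3 genes was the same in every experiment when the array medians were equalized and when quantile normalization was repeated. Under those scalings the share of all tested probe sets above 0 in all 4 experiments was 3.66% and 5.60%, and Psmd13, a lid subunit, joined them when quantile normalization was repeated. Members below 0 in all 4 experiments numbered 2, against 6.44% of all tested probe sets, 6 with equalized medians, against 7.96%, and 5 with repeated quantile normalization, against 8.07%.

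The PA28 genes behaved less uniformly. Psme1 had 8.87, 8.47, 8.69 and 8.79 with SCF in BC, D2, E and I, against 8.78, 8.56, 8.67 and 8.68 in medium. It was higher with SCF in 3 experiments and lower in D2, with a mean difference of 0.03 (SE 0.06, adjusted p = 0.968 in limma). This was 0.07 without D2, 0.02 without BC and 0.01 without I. Psme2 had 7.45, 7.25, 7.35 and 7.42 with SCF, against 7.46, 7.43, 7.30 and 7.44 in medium. Only the E pair had the higher value with SCF, and the mean difference of −0.04 (SE 0.06, adjusted p = 0.960 in limma) was 0.0044 without experiment D2.

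Of the constitutive catalytic subunits, Psmb5 had 10.02, 10.06, 10.06 and 9.96 with SCF, against 10.11, 10.10, 10.00 and 10.01 in medium. The difference was −0.03 (SE 0.05, adjusted p = 0.978 in limma), and 3 of the 4 pairs were lower with SCF. It was −0.0074 without BC and −0.05 without E. Psmb7 had 7.41, 7.46, 7.41 and 7.34 with SCF, against 7.53, 7.36, 7.44 and 7.33 in medium. Its pairs divided evenly in direction, and the difference was −0.0093 (SE 0.06, adjusted p = 0.996 in limma).

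Psmb6 departed from the other 2. It had 7.53, 7.73, 7.73 and 7.61 with SCF, against 7.60, 7.39, 7.65 and 7.50 in medium, so that SCF was higher in 3 of 4 pairs and most clearly in D2. The difference of 0.12 (SE 0.07, adjusted p = 0.945 in limma) was the highest of the constitutive subunits and as large as those of Psmb8 and Psmb10. It was 0.04 without experiment D2 and 0.18 without BC.

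**Figure D1:**
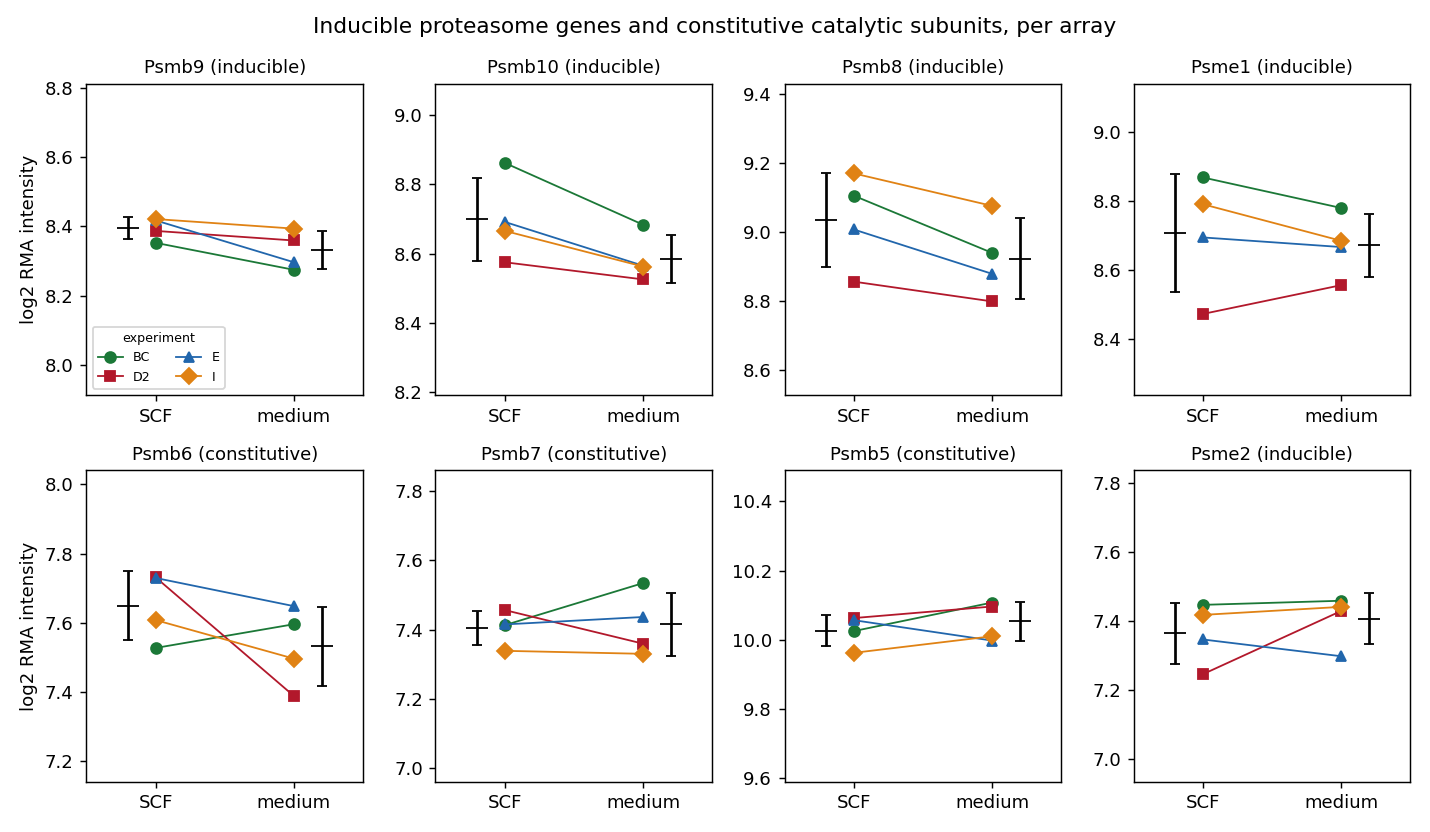
Log2 intensity (vertical axis) of the inducible and the constitutive catalytic subunits and the PA28 genes on each array, SCF left and medium right, with a line joining the arrays of 1 experiment and bars for each group's mean and SD (n = 4). The lines of Psmb8, Psmb9 and Psmb10 run higher on the SCF side in all 4 experiments, by 0.03 to 0.18, and the groups overlap for every gene.

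For each gene in the plot of intensities by array, the range of the experiment means was wider than the mean SCF minus medium difference. A range and a mean difference are unlike measures, so this says little about their relative size. The experiment means of Psmb8 spanned 0.29 and those of Psme1 0.31, against treatment differences of 0.11 and 0.03. For Psmb6 the 2 values lay closest, at 0.14 and 0.12.

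Each inducible catalytic subunit was then set against the constitutive one whose place it takes, by subtracting their changes within an experiment. For Psmb8 minus Psmb5, the difference of changes was 0.25, 0.09, 0.07 and 0.14 in BC, D2, E and I, above 0 in 4 of 4, with a mean of 0.14 ± 0.08 (SD, n = 4). For Psmb10 minus Psmb7 it was 0.30, −0.05, 0.15 and 0.09 in BC, D2, E and I, with a mean of 0.12 ± 0.14 (SD, n = 4) that was 0.07 without BC. For Psmb9 minus Psmb6 it was 0.15, −0.32, 0.04 and −0.08, with a mean of −0.05 ± 0.20 (SD, n = 4) that was 0.03 without D2, −0.12 without BC and −0.08 without E. The chymotrypsin-like pair was therefore the one with the same sign throughout, and the caspase-like pair was divided 2 to 2. With 4 pairs, an exact two-sided sign-flip test cannot give a p below 0.125.

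**Figure D2:**
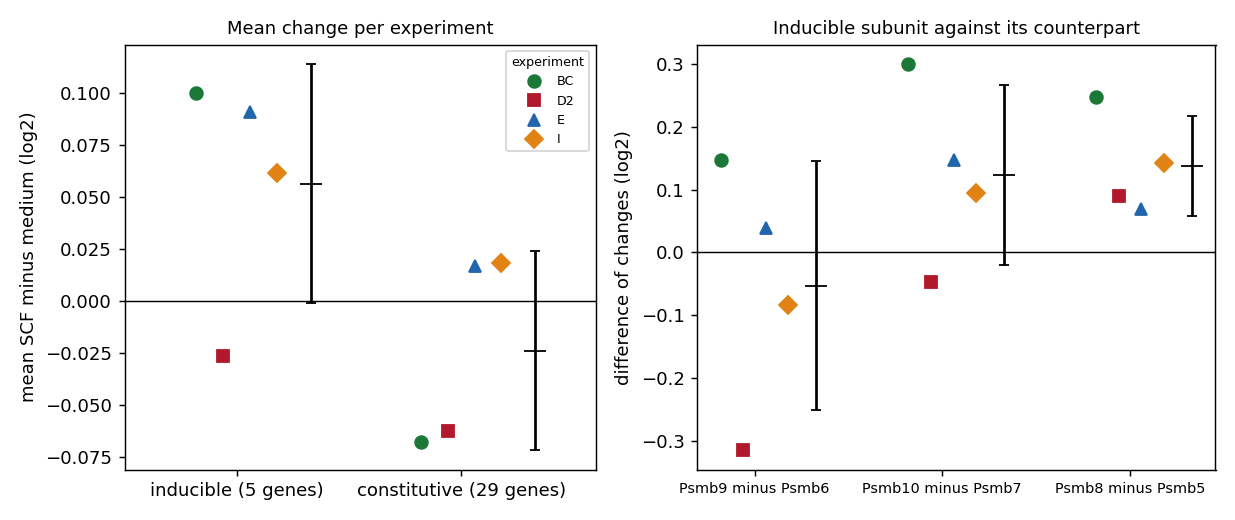
Difference between the log2 SCF minus medium change of each inducible catalytic subunit and that of the constitutive subunit it replaces (vertical axis), by experiment, with the mean and SD over 4 experiments. The Psmb8 minus Psmb5 points lie between 0.07 and 0.25, all above 0, whereas the Psmb9 minus Psmb6 points lie on both sides of 0.

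As the plot of exchange pairs shows, experiment BC gave the highest difference for each pair. Over the whole classes, the mean change of the 5 inducible genes was 0.10, −0.03, 0.09 and 0.06 in BC, D2, E and I, with a mean of 0.06 ± 0.06 (SD, n = 4). For the 29 constitutive genes it was −0.07, −0.06, 0.02 and 0.02, with a mean of −0.02 ± 0.05 (SD, n = 4). The constitutive mean ranged from −0.04 to −0.0092 when 1 experiment was left out, lying closest to 0 without BC, and was −0.04 with equalized array medians. The inducible mean was 0.08 without D2 and 0.04 with equalized array medians. The inducible mean exceeded the constitutive mean in 4 of 4 experiments, by 0.08 ± 0.06 (SD, n = 4) and by 0.05 without BC. Within the inducible class, the mean change was 0.10 ± 0.04 (SD, n = 4) for the catalytic subunits and −0.0039 ± 0.09 (SD, n = 4) for PA28. The PA28 mean was 0.04 without D2, where the catalytic mean was 0.11.

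**Figure D3:**
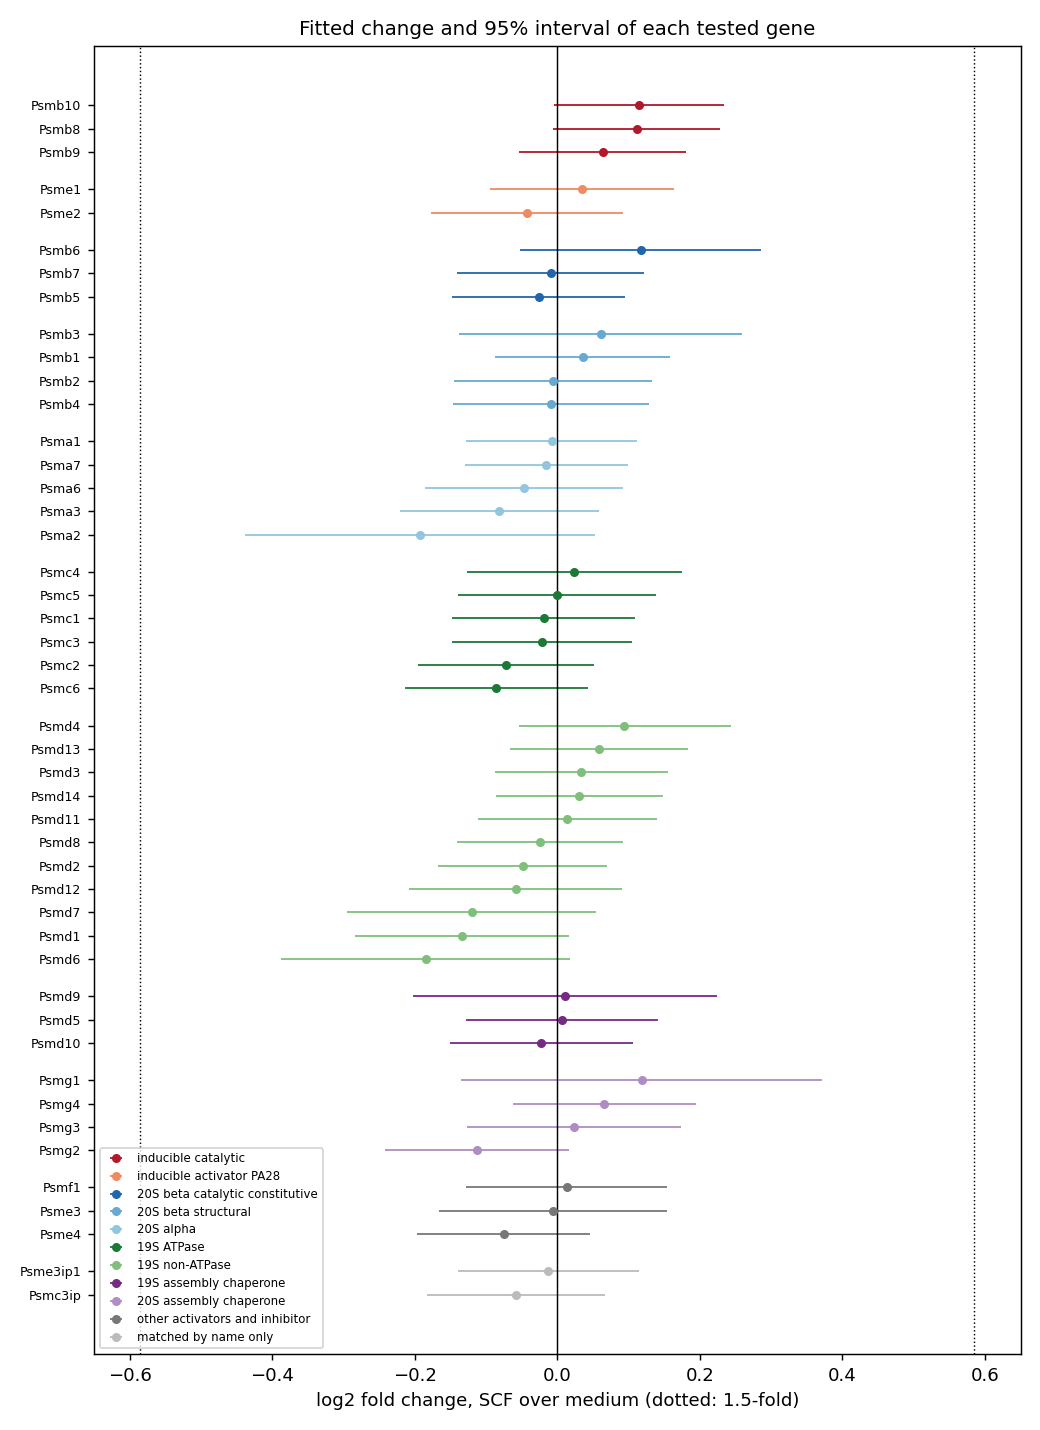
Fitted log2 SCF minus medium change of the 46 tested members (horizontal axis), grouped by role, with 95% intervals from limma. Every interval crosses 0 and stays inside the dotted lines at 1.5-fold in either direction.

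The plot of fitted changes by role sets out the remaining subunits. The 5 tested alpha ring genes among the members were below 0, with a median of −0.05, whereas the shared probe set of Psma4, another alpha ring gene, was above 0 in 4 of 4 experiments. Psma1 was nearest to 0 at −0.0074 (SE 0.05, adjusted p = 0.997 in limma). Psma2 had the lowest change of any member. It had 7.66, 7.94, 7.86 and 7.71 with SCF in BC, D2, E and I, against 7.85, 8.54, 7.81 and 7.73 in medium. The medium array of D2 stood far above the other 7, and the difference of −0.19 (SE 0.11, adjusted p = 0.945 in limma) was −0.05 without that experiment. Psma3, Psma6 and Psma7 lay between, at −0.08, −0.05 and −0.02.

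The structural beta subunits, which hold the ring together without a catalytic site of their own, were divided 2 to 2 around a median of 0.01. Psmb3 had the highest change at 0.06 (SE 0.09, adjusted p = 0.960 in limma), with differences of 0.32 in BC and −0.16 in I. Psmb4 had the lowest at −0.0089 (SE 0.06, adjusted p = 0.997 in limma). Psmb1 was at 0.04 (SE 0.05, adjusted p = 0.964 in limma) and at 0.0039 without experiment I.

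The 6 ATPases, Psmc1 to Psmc6, form the ring of the cap that unfolds substrates. Of them 5 were below 0, with a median of −0.02. Psmc4 was the exception at 0.02 (SE 0.06, adjusted p = 0.984 in limma). Psmc6 had the lowest change and the widest spread between experiments, with 8.08, 8.34, 8.32 and 8.06 with SCF in BC, D2, E and I, against 8.14, 8.53, 8.30 and 8.17 in medium. Both of its arrays in D2 were high, and the difference was −0.09 (SE 0.05, adjusted p = 0.945 in limma) and −0.05 without D2. Psmc2 was lower with SCF in 4 of 4 experiments, at −0.07 (SE 0.05, adjusted p = 0.945 in limma), and its pairs differed by as little as 0.02.

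Of the 11 non-ATPase subunits of the cap, 5 were above 0 and 6 below, with a median of −0.02. Psmd4, a ubiquitin receptor, was highest at 0.09 (SE 0.06, adjusted p = 0.945 in limma), and at 0.04 without experiment I. Psmd6, a lid subunit, was lowest. It had 6.90, 7.18, 7.15 and 7.06 with SCF in BC, D2, E and I, against 7.14, 7.66, 7.17 and 7.05 in medium. The medium array of D2 was again the highest of the 8, and the difference of −0.18 (SE 0.09, adjusted p = 0.945 in limma) was −0.09 without D2. Psmd14, the deubiquitinase of the lid, was at 0.03, and the base scaffold subunits Psmd1 and Psmd2 were at −0.13 and −0.05. A second probe set of Psmd1, shared with Armc9 and near the filter at a mean of 4.16, was at 0.04.

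The assembly chaperones of the cap, Psmd5, Psmd9 and Psmd10, lay close to 0, between −0.02 and 0.01. Psmd9 was at 0.01 (SE 0.09, adjusted p = 0.997 in limma) and turned to −0.0084 when array medians were equalized. Psmd10 was at −0.02 (SE 0.06, adjusted p = 0.983 in limma). The 4 chaperones that assemble the core spread more widely, with 3 above 0 and 1 below. Psmg1 had the highest change of any member at 0.12 (SE 0.11, adjusted p = 0.945 in limma), but its difference was 0.48 in experiment I and it was −0.0029 without that experiment. Psmg2, its partner in the chaperone complex, was at −0.11 (SE 0.06, adjusted p = 0.945 in limma). Psmg4 was at 0.07 (SE 0.05, adjusted p = 0.945 in limma) and at 0.04 without BC.

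Of the remaining regulators, Psme4, an activator known for the degradation of acetylated histones in the testis, was lower with SCF in 4 of 4 experiments, at −0.08 (SE 0.05, adjusted p = 0.945 in limma), although its I pair differed by only −0.00024. Psmf1, an inhibitor of the core in the test tube, was at 0.01 (SE 0.06, adjusted p = 0.993 in limma) and at −0.0060 with equalized array medians. Psme3, the nuclear activator, was at −0.0056. The members matched by name only were at −0.06 for Psmc3ip, or −0.03 without I, and −0.01 for Psme3ip1. With Psmb8, Psmb9, Psmb10 and Psmc2, Psme4 makes 5 members with 1 sign in all 4 experiments, against 12.9% of all tested probe sets. With equalized array medians Psmc2 and Psme4 no longer had 1 sign, at 0.0096 and 0.03 in experiment I.

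The arrays also show how the members varied between the 4 cultures, whatever the treatment. Experiment is both the culture and the batch here, and these cannot be told apart. A moderated F test over the experiments in the same limma fit called 0 members at an adjusted p of 0.05, against 3.35% of all tested probe sets, and 8 at an unadjusted p under 0.05, against 24.2%. These were Psmb8, Psme1, Psma2, Psmc1, Psmc6, Psmd6, Psme4 and Psmg4. The range of a member's experiment means had a median of 0.15, against 0.20 over all tested probe sets. It ran from 0.07 for Psmc3ip to 0.52 for Psma2. The smallest adjusted p was that of Psmc6, 0.0967, and those of Psmb8 and Psme1 were 0.137 and 0.153. With a variance trend in the fit, 3 members passed, Psmb8, Psme1 and Psmc6, against 12.1% of all tested probe sets, and the same 3 passed with a stricter intensity filter, against 22%.

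**Figure D4:**
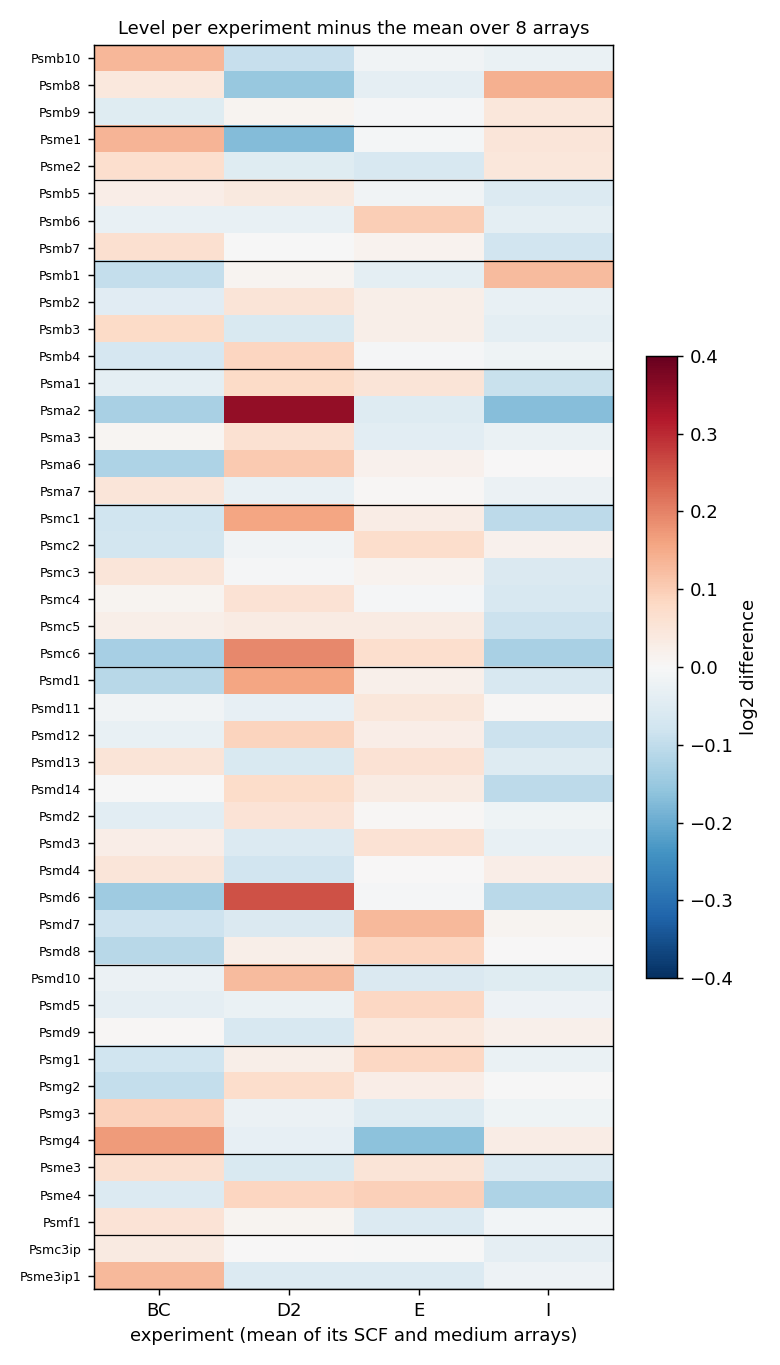
Deviation of each tested member's experiment mean from its mean over the 4 experiments, in log2 units shown by colour, with genes grouped by role and experiments BC, D2, E and I as the other axis. Psmb8, Psmb10 and Psme1 have their lowest value in D2, while 15 of the 29 constitutive genes have their highest there and 6 their lowest. The shares of all tested probe sets highest or lowest in D2 were not counted.

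In the plot of experiment means the inducible and constitutive genes had different orders. The mean deviation of the inducible genes was 0.07, −0.09, −0.03 and 0.05 in BC, D2, E and I, and that of the constitutive genes was −0.03, 0.05, 0.03 and −0.04. None of the 5 inducible genes was highest in D2 and 3 of them were lowest there. Psmb9 went the other way, with 8.37 in D2 against its mean of 8.36. The shares of all tested probe sets highest or lowest in D2 were not counted, so these counts only describe the members. The low mean D2 value of the inducible genes stood on both arrays, with −0.10 with SCF and −0.08 in medium. The high D2 values of the constitutive genes were 0.02 with SCF and 0.08 in medium. The difference between the classes was not tested.

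A mast cell marker had the same order of experiments as the mean of the inducible genes, from BC through I and E down to D2. Psme1 had that order itself, but the other inducible genes did not. Psmb8 was highest in I, Psmb9 was lowest in BC, Psme2 was lowest in E, and Psmb10 was higher in E than in I. The order was not particular to a mast cell marker. Nfya, which encodes a subunit of NF-Y, had it too, as did the constitutive Psmd4. So did several class I loading genes, Tap1, Tap2 and Tapbpl. Cpa3, a mast cell protease, had experiment means of 5.02, 4.01, 4.34 and 4.82 in BC, D2, E and I, and was called between experiments (adjusted p = 0.0333 in limma). It was the only one of the 5 mast cell markers above the filter, and Mcpt4, Tpsb2, Fcer1a and Ms4a2 averaged between 2.48 and 2.85 with SCF and between 2.52 and 2.84 in medium. These other markers did not have the order of Cpa3. Mcpt4 and Tpsb2 were lowest in BC, Fcer1a was highest in E and Ms4a2 was lowest in E. The summed log2 intensity of the 5 markers ran from 14.6 to 15.8 with SCF and from 15.0 to 15.8 in medium. The part of such cells in the pattern of the inducible genes was not tested.

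Genes that work with the proteasome were read from 4 lists. None of their 36 tested genes passed the adjusted p of 0.05 in limma or an unadjusted p under 0.05. From each list the 2 genes with the smallest unadjusted p were picked, which favours genes with 1 sign in all 4 experiments. That pattern was found for 12.9% of all tested probe sets. Other listed genes had it too, such as Pomp and Usp14, lower with SCF, and Tapbp, higher. Of the 10 tested partners that ride on or build the particle, 2 were above 0 and 8 below, with a median of −0.07. Txnl1, a thioredoxin-like protein of the cap, was at −0.13 (SE 0.05, adjusted p = 0.945 in limma), lower with SCF in 4 of 4 experiments. Ube3c, a ubiquitin ligase on the particle, was at −0.12 (SE 0.05, adjusted p = 0.945 in limma), also lower in 4 of 4.

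Among 9 tested genes that control proteasome gene transcription, 6 were above 0 and 3 below, with a median of 0.03. Irf1, the interferon-induced factor that acts on Psmb9 and Tap1, had 7.24, 7.06, 7.18 and 7.26 with SCF in BC, D2, E and I, against 7.16, 6.94, 7.16 and 7.16 in medium. Each SCF array was the higher of its pair and D2 the lowest experiment, and the difference was 0.08 (SE 0.05, adjusted p = 0.945 in limma). Nfya, a subunit of the CCAAT-binding NF-Y, was at 0.08 (SE 0.05, adjusted p = 0.945 in limma) and above 0 in 4 of 4.

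Of 10 tested genes of class I peptide loading, 6 were above 0 and 4 below, with a median of 0.0091. Tapbpl, a peptide editor, was at 0.10 (SE 0.07) and at 0.06 without experiment E, and Pdia3, of the loading complex, was at −0.07 (SE 0.06) and at −0.02 without D2. Tap1, the gene between Psmb9 and Psmb8, read 8.81 ± 0.05 with SCF and 8.77 ± 0.10 in medium (SD, n = 4 each), higher with SCF in 2 of 4 experiments. Of 7 tested genes of ubiquitin supply and delivery, 4 were above 0 and 3 below. Ufd1, a cofactor of the unfoldase Vcp, was at −0.11 (SE 0.05) and lower in 4 of 4, and Ubqln4, a shuttle factor, was at 0.04 (SE 0.07).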

How the data were processed

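Intensities from 8 Affymetrix arrays were read from the authors' deposited value table of 41345 probe sets. RMA was applied by the authors, per the submitters' processing notes, with software and version not given in the sources used here. Judged from the values, the deposited intensities lie on a linear scale, and log2 was taken without a pseudocount. Genes came from the platform annotation: 23521 probe sets have 1 symbol, 1814 several and 16010 none. Tests used limma 3.58.1 in R 4.3.3 (lmFit and eBayes) on 12668 probe sets with at least 1 symbol and a mean log2 intensity of at least 4.05, with experiment as a fixed block and Benjamini-Hochberg adjustment over all of them. The labels state that each experiment's cells were split into both groups, and deviations of the 2 arrays of an experiment from their group means had correlations of 0.46, 0.41, 0.42 and 0.36 (BC, D2, E, I). The median SE of a log2 change was 0.06, with 4 arrays a group limiting the precision. The p-values for SCF rest on the spread of the SCF minus medium differences over the 4 pairs, moderated over all tested probe sets. The F test sets the differences between experiments against the same residual spread. Separate animals are not stated, so the pairs are cultures and not known to be separate animals. The steps were tested on simulated data with planted changes larger than any fitted change of a member. That test says nothing about detecting changes as small as the members' own.

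The 49 members and the gene lists were chosen with earlier results of these data known. Described in full are the catalytic and PA28 genes, in each other role group the highest, the lowest and the most variable member, and in each pathway list the 2 genes with the smallest p, other members being named for their role or sign. Alternatives were equalized array medians, repeated quantile normalization, no and a stricter intensity filter, the mean of a gene's probe sets, a variance trend, no or a random block, and leaving out each experiment. Levels of different probe sets are not compared.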

Additional observations from a re-analysis of the deposited data

Results flagged for a closer look

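A value standing apart from the other 3 arrays of its group, by Dixon's criterion at the 95% level, was found in 4 of 68 groups of 4 arrays, formed by 34 genes and both treatments. For independent groups of unselected genes, chance would give about 1 in 20, or 3.4 groups. Many of the 34 genes were picked for an extreme change, a wide range or a small p. The groups also share the same 8 arrays, so that rate is only a rough guide. The alpha ring gene Psma2 had its highest medium value in experiment D2, at 8.54. Psmd10, an assembly chaperone of the cap, likewise had its highest medium value in D2, at 8.12. Irf1 had its lowest medium value in D2, at 6.94. Psmg2 had its lowest SCF value in experiment BC, at 5.34. In 3 of the 4 cases the array was the medium array of D2.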

How the results depend on the processing

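No alternative brought a member past the adjusted p of 0.05 for SCF against medium, with no replicate block and with a random replicate block included, and the smallest adjusted p of the 34 named genes was 0.686. Between experiments, 3 members passed with the variance trend, against 12.1% of all tested probe sets, and 3 with the stricter intensity filter, against 22%. They were Psmb8, Psme1 and Psmc6 in both cases, and the cause was not tested. Equalizing array medians shifts the probe sets of an array alike and moved the median over all tested probe sets to −0.02. It turned Psmd9 to −0.0084, Psmf1 to −0.0060, Psmd5 to −0.0128 and Psmd11 to −0.0054. Leaving out 1 experiment, which leaves 3 pairs, altered the value more than 1.5 times, sign changes included, in 24 of the 34 named genes, and turned the sign of 12, and the cause was not tested. For those 12 the ranges were −0.045 to 0.028 for Psmb7, −0.073 to 0.0044 for Psme2, −0.026 to 0.018 for Psma1, −0.024 to 0.13 for Psmb3, −0.044 to 0.038 for Psmb4, −0.017 to 0.088 for Psmc4, −0.06 to 0.12 for Psmd9, −0.038 to 0.020 for Psmd10, −0.022 to 0.065 for Psmf1, −0.0029 to 0.22 for Psmg1, −0.037 to 0.024 for Psme3ip1 and −0.034 to 0.069 for Ubqln4. The inducible minus constitutive mean stayed between 0.05 and 0.09. Of 402 values recomputed for the named genes under 12 alternatives, 16 had the opposite sign. Members above 0 numbered 19, where 50.5% of all tested probe sets were above 0, 15 with equalized array medians, where 39.5% were, and 18 with repeated quantile normalization, where 44.1% were. Signal near the filter limits Psmb3, Psmg1, Psmg4 and Psmc3ip, and Psma5 lay below it.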

Other observations

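The markers of other cells were read beside the proteasome genes. The 4 tested macrophage markers had fitted changes from −0.20 to −0.0076, and their summed log2 intensity ran from 32.9 to 34.4 with SCF and from 33.5 to 34.6 in medium. They did not move alike: Cd68 was higher with SCF in 3 of 4 experiments, and Cd68 and Csf1r were at 0.03 and 0.01 without experiment BC. Mertk, a receptor for the uptake of dying cells, averaged 6.57 ± 0.21 with SCF and 6.77 ± 0.09 in medium (SD, n = 4 each) and was below its medium partner in every experiment. Its difference was −0.20 (SE 0.07, unadjusted p = 0.0269, adjusted p = 0.945 in limma), with −0.46 in BC, and −0.12 without BC. Of the 5 tested dendritic cell markers, 4 were above 0 and 1 below. Zbtb46, a transcription factor of classical dendritic cells, was at 0.16 (SE 0.07, adjusted p = 0.945 in limma) but lower with SCF in E, Flt3, H2-Ab1 and Ciita were at 0.04, 0.04 and 0.02, and Itgax was at −0.06. Cpa3 stood at 4.55 ± 0.46 with SCF and 4.55 ± 0.49 in medium, and Ly6g, the neutrophil marker above the filter, at 4.41 ± 0.20 with SCF and 4.34 ± 0.09 in medium (SD, n = 4 each). The part of these markers in the values of the proteasome genes was not tested.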
